A study of Mus musculus with 33 samples.

Results

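The DNA methylation machinery of the mouse oocyte was examined through 10 genes, which were chosen by name: *Dnmt1*, *Dnmt3a*, *Dnmt3b*, *Dnmt3l*, *Uhrf1*, *Dppa3*, *Tet1*, *Tet2*, *Tet3* and *Zfp57*. All 10 of 10 were found by gene symbol among the 35321 genes of the count table. The table holds 33 single germinal vesicle (GV) oocytes of female mice aged 3 weeks on a C57BL6/Babr background, of which 10 oocytes were *Nlrp5* +/+, 16 were *Nlrp5* +/- and 7 were *Nlrp5* -/-. The mutant allele is a small frameshift deletion made with CRISPR/Cas9 in zygotes and passed through the germline, so that all cells of a female carried it. By the study's methods, +/- and -/- females were littermates whereas +/+ females usually came from the originating colony. *Nlrp5* encodes NALP5, a core protein of the subcortical maternal complex. Oocytes had been staged by the study as NSN (non-surrounded nucleolus, the less mature chromatin form) or SN (surrounded nucleolus, the more mature form) from marker genes in these same libraries, not from microscopy of the sequenced cells. Stages as read here from the study's heat map gave 4 NSN and 6 SN oocytes for +/+, 9 and 7 for +/-, and 4 and 2 for -/-, with oocyte 15 (-/-) left without a stage. The numbers for +/+ and -/- match the study's methods. A caption in its supplement gives, for +/-, the same numbers as the methods give for +/+, so the +/- numbers used here rest on the heat map alone.

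DNA methylation in the mouse oocyte is laid down after birth, while the oocyte grows. DNMT3A is the enzyme that methylates unmethylated DNA in these cells, and it needs DNMT3L, a relative with no catalytic activity of its own. DNMT1 copies methylation after DNA replication, and UHRF1 brings it to newly replicated DNA. DPPA3 (also called STELLA or PGC7) binds UHRF1 and keeps it out of the oocyte nucleus, and after fertilization it protects the maternal genome from loss of methylation. TET enzymes oxidize 5-methylcytosine, and TET3 acts on the zygote's DNA. ZFP57 is a maternal zinc finger protein that keeps methylation on imprinted control regions in the embryo.

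No mouse is named for any oocyte, so the oocytes of a genotype and stage were treated as 1 sample. Differences are therefore given as descriptions, with the spread between oocytes and without a test. Values are normalized counts, which are read counts divided by the size factor of the library. A log2 difference compares mean normalized counts after adding 1, and a difference of at least 0.5 in either direction (1.41-fold) was counted. Depth was 4223595 to 15573360 reads on genes per oocyte, with medians of 10144208 in +/+, 6643186 in +/- and 9313750 in -/- oocytes. The targeted gene followed the labels: *Nlrp5* was at 10114 to 29131 normalized counts in +/+, 5062 to 13472 in +/- and 1362 to 2556 in -/- oocytes. All 8 oocyte markers had counts in every group. A list of 14 granulosa cell markers summed to 452 to 638 CPM (counts scaled to the library total) in +/+ oocytes, 476 to 638 in +/- and 488 to 861 in staged -/- oocytes, the highest being oocyte 14. Oocyte 15 stood apart at 1558 CPM. A list of 10 theca, stroma and blood markers summed to 50.3 to 115 CPM in the staged oocytes except oocyte 61, which was at 238 CPM. Libraries carried 10 first indices, of which 9 were shared by several libraries and 1 belonged to oocyte 7 alone, an SN -/- oocyte. Each first index held a single genotype, so that genotype and first index cannot be told apart.

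Each gene was measured by 1 count that adds up reads from all of its transcripts, so that alternative starts cannot be told apart. The sequences upstream of the annotated starts are shown for *Dnmt1* and *Dnmt3l* because RefSeq (GRCm38.p6) lists several starts for these genes, and the counts below merge them. Each window holds the 250 bases before a start, written 5′ to 3′ on the strand of the gene, with every CG dinucleotide, the site of methylation, in capitals.
*Dnmt1* start 1, chr9:20959889-20960138, minus strand: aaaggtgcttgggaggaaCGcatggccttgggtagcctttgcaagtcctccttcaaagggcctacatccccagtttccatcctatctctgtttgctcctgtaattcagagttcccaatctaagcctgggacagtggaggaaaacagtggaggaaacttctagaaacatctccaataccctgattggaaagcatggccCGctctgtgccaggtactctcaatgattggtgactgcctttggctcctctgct
*Dnmt1* start 2, chr9:20952980-20953229, minus strand: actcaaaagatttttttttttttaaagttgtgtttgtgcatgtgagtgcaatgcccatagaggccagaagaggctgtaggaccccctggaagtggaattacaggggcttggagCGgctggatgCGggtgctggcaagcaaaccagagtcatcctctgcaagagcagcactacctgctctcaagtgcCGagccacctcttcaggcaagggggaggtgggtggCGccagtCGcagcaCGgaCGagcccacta
*Dnmt1* start 3, chr9:20952624-20952873, minus strand: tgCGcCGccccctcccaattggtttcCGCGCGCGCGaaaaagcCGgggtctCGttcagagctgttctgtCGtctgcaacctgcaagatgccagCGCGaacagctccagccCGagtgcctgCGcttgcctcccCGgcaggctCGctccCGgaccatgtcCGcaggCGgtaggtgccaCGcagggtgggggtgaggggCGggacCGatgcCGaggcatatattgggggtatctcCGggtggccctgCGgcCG
*Dnmt3l* start 1, chr10:78042037-78042286, plus strand: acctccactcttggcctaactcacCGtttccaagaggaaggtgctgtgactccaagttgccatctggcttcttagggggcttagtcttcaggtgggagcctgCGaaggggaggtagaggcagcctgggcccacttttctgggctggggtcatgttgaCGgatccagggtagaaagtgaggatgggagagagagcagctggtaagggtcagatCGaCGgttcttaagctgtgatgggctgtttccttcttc
*Dnmt3l* start 2, chr10:78049592-78049841, plus strand: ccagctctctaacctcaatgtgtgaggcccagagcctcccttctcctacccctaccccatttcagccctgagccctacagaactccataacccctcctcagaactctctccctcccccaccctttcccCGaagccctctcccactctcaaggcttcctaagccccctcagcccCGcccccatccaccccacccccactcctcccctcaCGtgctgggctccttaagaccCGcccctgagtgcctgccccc
*Dnmt3l* start 3, chr10:78055085-78055334, plus strand: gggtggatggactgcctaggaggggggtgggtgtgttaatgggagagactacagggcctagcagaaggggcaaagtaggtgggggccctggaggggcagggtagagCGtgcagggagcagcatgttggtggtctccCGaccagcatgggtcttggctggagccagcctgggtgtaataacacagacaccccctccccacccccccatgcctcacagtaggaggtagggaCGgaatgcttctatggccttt
The windows at the 3 *Dnmt1* starts held 2, 7 and 26 CG dinucleotides, the last more than 90.4% of all windows. The 3 *Dnmt3l* windows held 5, 4 and 3. The median over 32851 such windows was 6, and 49.6% of them held 5 or fewer. For 9 of the 10 members a window was found, 18 windows in all, and these ranged up to 51 CG dinucleotides at *Tet2* and 38 to 40 at the first and second *Dnmt3a* starts. In the GRCm38 coordinates of the count table, *Dnmt1* spans chr9:20907209-20959888 and *Uhrf1* chr17:56303321-56323486. *Dnmt3a* spans chr12:3806007-3914443, *Dnmt3b* chr2:153649450-153687730 and *Dnmt3l* chr10:78041947-78063622. *Dppa3* spans chr6:122626410-122630272 and *Zfp57* chr17:37001163-37010635. *Tet1* spans chr10:62804570-62908996, *Tet2* chr3:133463679-133545139 and *Tet3* chr6:83362373-83459084. *Dnmt1* and the *Tet* genes lie on the minus strand and the others on the plus strand. *Dnmt3l* overlaps *Aire* on the opposite strand (35.4 to 134 normalized counts), *Tet2* overlaps *Gm42567* (11.8 to 99.8), and *Dnmt3a* and *Dnmt3b* overlap antisense transcripts with means of 5.83 and 1.16. Whether strand was used in counting is not given in the sources used here, so reads from such pairs may not be separated.

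All members had reads in +/+ oocytes, but their levels covered more than 3 orders of magnitude once divided by the length of their exons (union of GENCODE exons, in kb). *Dppa3* was the most abundant, with a median of 10036 normalized counts per kb over the 10 +/+ oocytes (5720 to 16791). The maintenance pair came next, *Dnmt1* at a median of 2428 per kb and *Uhrf1* at 1564, followed by *Zfp57* at 894. The union adds up exons of all annotated transcripts, 9198 bases from 38 transcripts for *Zfp57*. Levels per kb may therefore be too low for such genes, and the order depends on this divisor. *Dnmt3l* had a median of 481 per kb and *Tet3* of 302, and the ranges of these neighbours overlapped, with *Dnmt3l* above *Tet3* in 8 of 10 oocytes. *Dnmt3a* was at 64.6 to 100.2 per kb and *Dnmt3b*, a methyltransferase needed later in the embryo, at 12.8 to 31.5. *Tet1* (4.03 per kb) and *Tet2* (2.48 per kb) were lowest, and *Tet1* was above *Tet2* in 8 of 10 oocytes. The ranges of *Dnmt1* and *Uhrf1* and of *Uhrf1* and *Zfp57* also overlapped, although in each of the 10 oocytes the first of each pair was the higher. *Tet1* (1.61 to 7.67) and *Tet2* (1.34 to 6.22) overlapped as well, and the remaining neighbours did not.

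**Figure D1:**
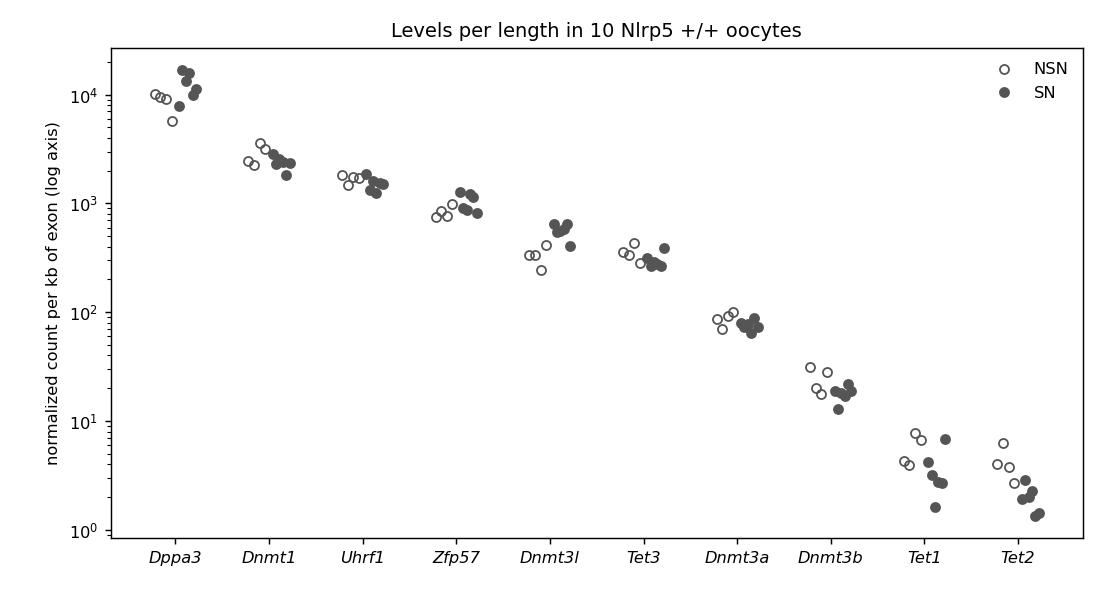
Normalized counts per kb of exon (log axis) of the 10 members in the 10 *Nlrp5* +/+ oocytes, ordered by their median over these oocytes. Each point is 1 oocyte, open for NSN (4) and filled for SN (6). *Dppa3* lies highest and *Tet1* and *Tet2* lowest.

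**Figure D2:**
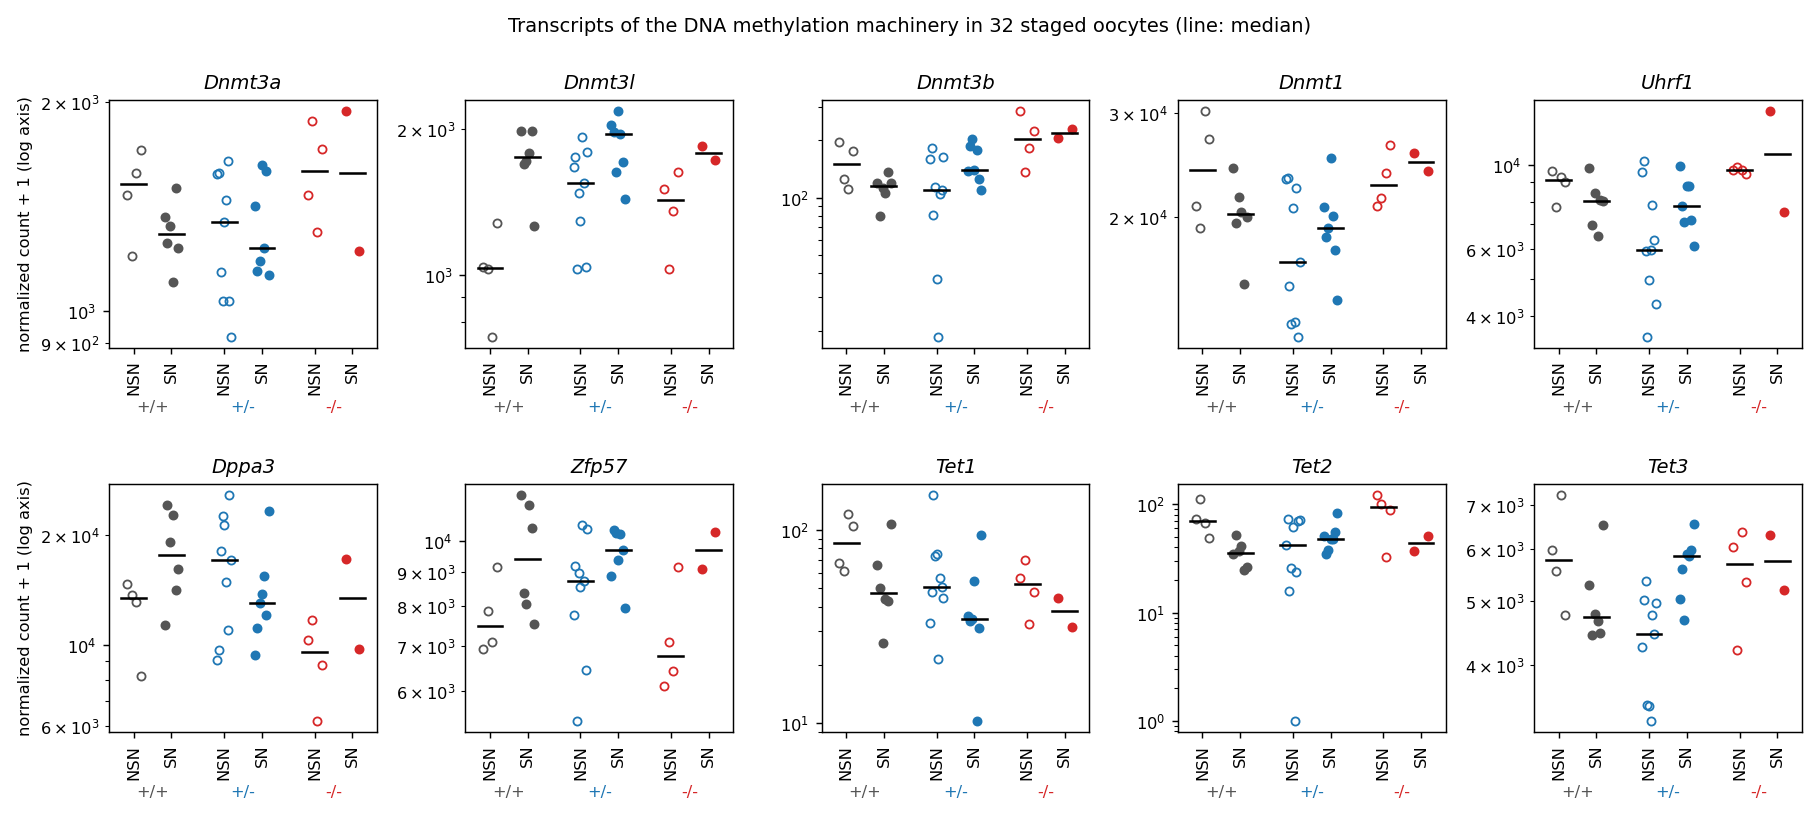
Normalized count plus 1 (log axis, a different range in each panel) of each member in the 32 staged oocytes. Points are oocytes, open for NSN and filled for SN, in grey for *Nlrp5* +/+, blue for +/- and red for -/-, and lines are medians. *Dnmt3l* is higher in SN than in NSN oocytes in each genotype, whereas *Dppa3* and *Uhrf1* are spread widely in NSN +/- oocytes.

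Of *Dnmt3l* and *Dnmt3a*, the genes of the cofactor and the enzyme, only *Dnmt3l* differed by at least 0.5 between the stages in +/+ oocytes. *Dnmt3l* was at 745, 1029, 1039 and 1276 normalized counts in the 4 NSN oocytes and at 1262 to 1976 in the 6 SN oocytes, with a median of 1752. Only oocyte 86 among the SN oocytes, at 1262, lay within the NSN range. The mean was 1734 ± 262 (SD, n = 6) in SN and 1022 ± 217 (SD, n = 4) in NSN oocytes, a log2 difference of 0.76, and it stayed between 0.64 and 0.89 when each oocyte was left out in turn. *Dnmt3a* was at 1200, 1470, 1577 and 1706 in NSN and at 1099 to 1504 in SN oocytes, with a median of 1289 in SN. These ranges overlapped, and the difference was -0.20, close to the spread between oocytes (SD of 0.18 on the log2 scale). The count of *Dnmt3l* over that of *Dnmt3a* within an oocyte needs no scaling between libraries. This ratio was 0.473, 0.707, 0.748 and 0.857 in the NSN +/+ oocytes and 1.02 to 1.62 in the SN +/+ oocytes, so that no value overlapped. Of single genes, 9.8% did not overlap in this comparison. No share over ratios of other gene pairs was taken, here or below.

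In the mutant genotypes *Dnmt3l* was also higher in SN oocytes, but from a higher mean NSN level. The NSN oocytes of both genotypes overlapped with those of +/+. In +/- oocytes it was at 1028 to 1920 (median 1544, n = 9) in NSN and 1435 to 2175 (median 1955, n = 7) in SN, a log2 difference of 0.30. In -/- oocytes it was at 1025, 1353, 1502 and 1627 in NSN and at 1723 and 1839 in SN, a difference of 0.37 without overlap, as for 20.2% of 13840 genes. SN levels were alike in the 3 genotypes, with means of 1734, 1843 and 1781, while the NSN means were 1022, 1500 and 1377. The stage difference was thus 0.46 smaller in +/- and 0.39 smaller in -/- than in +/+ oocytes on the log2 scale, which was not tested. Other members departed more from +/+ in +/- oocytes, namely *Tet2* (1.31), *Dnmt3b* (0.96), *Dppa3* (-0.77) and *Tet3* (0.61). In -/- oocytes *Dnmt3b* (0.51) did so. The ratio of *Dnmt3l* to *Dnmt3a* was 0.905 to 1.95 in NSN +/- oocytes, above all 4 NSN +/+ oocytes. In NSN -/- oocytes the ratio was 0.547 in oocyte 14 and 0.953, 1.03 and 1.04 in the others, and in SN -/- oocytes it was 0.949 and 1.41.

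**Figure D3:**
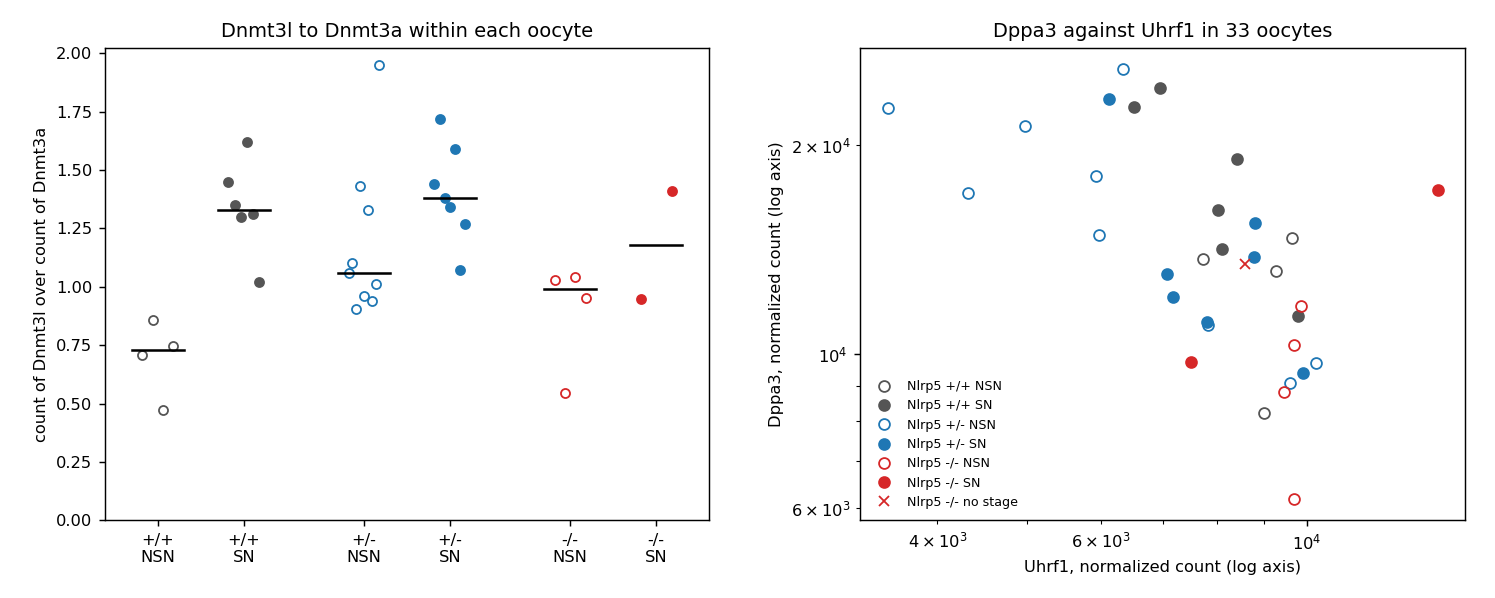
Left, the count of *Dnmt3l* divided by the count of *Dnmt3a* in each of 32 staged oocytes (linear axis from 0, lines are medians). NSN and SN *Nlrp5* +/+ oocytes do not overlap, the NSN values ending at 0.857 and the SN values starting at 1.02. The share of other gene ratios without overlap was not taken. Right, *Dppa3* against *Uhrf1* (normalized counts, log axes) in all 33 oocytes, with the oocytes highest in *Dppa3* mostly low in *Uhrf1*. Open points are NSN, filled points SN and the cross is the oocyte without a stage.

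Over all members, 4 of 10 differed by at least 0.5 between SN and NSN +/+ oocytes, beside 33.9% of the 13576 genes with a mean of at least 10 normalized counts. *Dnmt3l* and *Dppa3* were higher in SN and *Tet1* and *Tet2* were higher in NSN. The members had a median difference of -0.21 beside 0.03 over all genes, and a median size of 0.37 beside 0.34. None of the 10 had non-overlapping oocytes, beside 9.8% of all genes. The member counts were thus near those of all genes in this comparison. With scaling by the total count, the median of all genes moved by -0.11 and the members moved with it, *Dnmt3l* to 0.65 and *Dppa3* to 0.43.

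*Dppa3* was at 8208, 13137, 13685 and 14678 in NSN and at 11318 to 24095 (median 17591) in SN +/+ oocytes. The ranges overlapped, and the log2 difference of 0.53 became 0.37 without oocyte 87, 0.39 for medians and 0.40 for pooled counts. The maintenance pair differed little between the stages in these oocytes. *Dnmt1* was at 19199, 20907, 27076 and 30222 in NSN and at 15419 to 24218 (median 20209) in SN (log2 difference -0.27), and *Uhrf1* at 7730, 9005, 9262 and 9633 in NSN and 6511 to 9793 (median 8057) in SN (-0.16). The ratio of *Uhrf1* to *Dnmt1* within an oocyte was 0.306 to 0.461 in NSN and 0.320 to 0.525 in SN +/+ oocytes. *Zfp57* was at 6927, 7075, 7865 and 9145 in NSN and 7531 to 11673 (median 9415) in SN, a difference of 0.30.

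The *Tet* genes were the members with the lowest counts apart from *Tet3*, and their oocytes varied most. *Tet2* was at 47.9, 66.7, 71.9 and 110.3 normalized counts in NSN +/+ oocytes and at 23.8 to 51.2 (median 34.8) in SN, which gave a log2 difference of -1.06. Only the SN oocyte at 51.2 reached into the NSN range. These values rest on 366 reads in all NSN oocytes (9.91 CPM) and 278 in all SN oocytes (4.12 CPM). *Tet1* was at 60.3, 65.9, 103 and 119 in NSN and at 24.9 to 106 (median 45.9) in SN, a difference of -0.66 that became -0.47 without oocyte 79. Its summed counts were at 11.7 CPM in NSN (exact 95% Poisson interval 10.7 to 12.9) and 7.50 CPM in SN (6.86 to 8.18), intervals that cover counting error only. *Tet3*, the abundant member of the family, was at 4756, 5561, 5972 and 7235 in NSN and at 4443 to 6514 (median 4718) in SN, and differed by -0.23. *Dnmt3b* was at 109.7, 124, 175 and 196 in NSN and 79.3 to 136 (median 114) in SN, a difference of -0.44, which ranged from -0.57 without oocyte 79 to -0.29 without oocyte 70 and from -0.98 to -0.12 within first indices.

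In +/- oocytes 2 of 10 members differed by at least 0.5 between the stages, beside 28.7% of 13613 genes, and none was without overlap, beside 1.34% of all genes. *Dnmt3b* was higher in SN (0.52, or 0.37 without oocyte 61) and *Tet1* lower (-0.55, or -0.26 without oocyte 53). The count was 0 without oocyte 46 or without oocyte 53, and 1 without oocyte 38, 39, 47, 56 or 61. *Dppa3* differed by -0.24 and *Tet2* by 0.25, both in the direction opposite to +/+, although *Tet2* was at -0.10 with oocyte 61 as SN. The other members overlapped between the stages in +/- oocytes as well. *Dnmt3a* was at 918 to 1643 (median 1344) in NSN and 1127 to 1621 (median 1230) in SN, and *Zfp57* at 5413 to 10546 (median 8709) in NSN and 7942 to 10362 (median 9700) in SN. *Tet3* was at 3284 to 5358 (median 4445) in NSN and 4677 to 6554 (median 5850) in SN, a difference of 0.38 where +/+ oocytes had -0.23. In -/- oocytes 2 of 10 members passed 0.5, beside 38.1% of 13840 genes, and 1 of 10 (*Dnmt3l*) was without overlap, beside 20.2%. *Dppa3* was higher in SN (0.54) and *Tet2* lower (-0.95, between -1.22 and -0.74 with each oocyte left out). *Dppa3* was at 6183, 8815, 10299 and 11700 in NSN and at 9715 and 17188 in SN -/- oocytes, and its difference was 0.07 without oocyte 7 and 0.89 without oocyte 31.

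The stage difference was then taken within libraries that share a first index, which was possible for 6 of 10 first indices (3 of +/+, 2 of +/- and 1 of -/-). Of the 10 members, 4 had the same direction in all 6, beside 16.6% of 13896 genes. *Dnmt3l* was higher in SN in 6 of 6, by 0.34, 0.82 and 0.98 in +/+, 0.10 and 0.18 in +/- and 0.21 in -/-. *Dppa3* was also higher in SN in 6 of 6, by 0.27 to 0.88 in +/+, 0.17 and 0.55 in +/- and 0.37 in -/-, so that the opposite direction of the pooled +/- oocytes was not seen within either first index. *Dnmt3a* and *Tet1* were lower in SN in 6 of 6, with *Dnmt3a* between -0.32 and -0.05 and *Tet1* between -1.38 and -0.09. *Zfp57* was higher in SN in 5 of 6, *Dnmt1*, *Uhrf1* and *Tet2* in 1 of 6, *Dnmt3b* in 2 of 6 and *Tet3* in 3 of 6. Each within-index value compares 1 or 2 SN oocytes with 1 to 3 NSN oocytes.

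**Figure D4:**
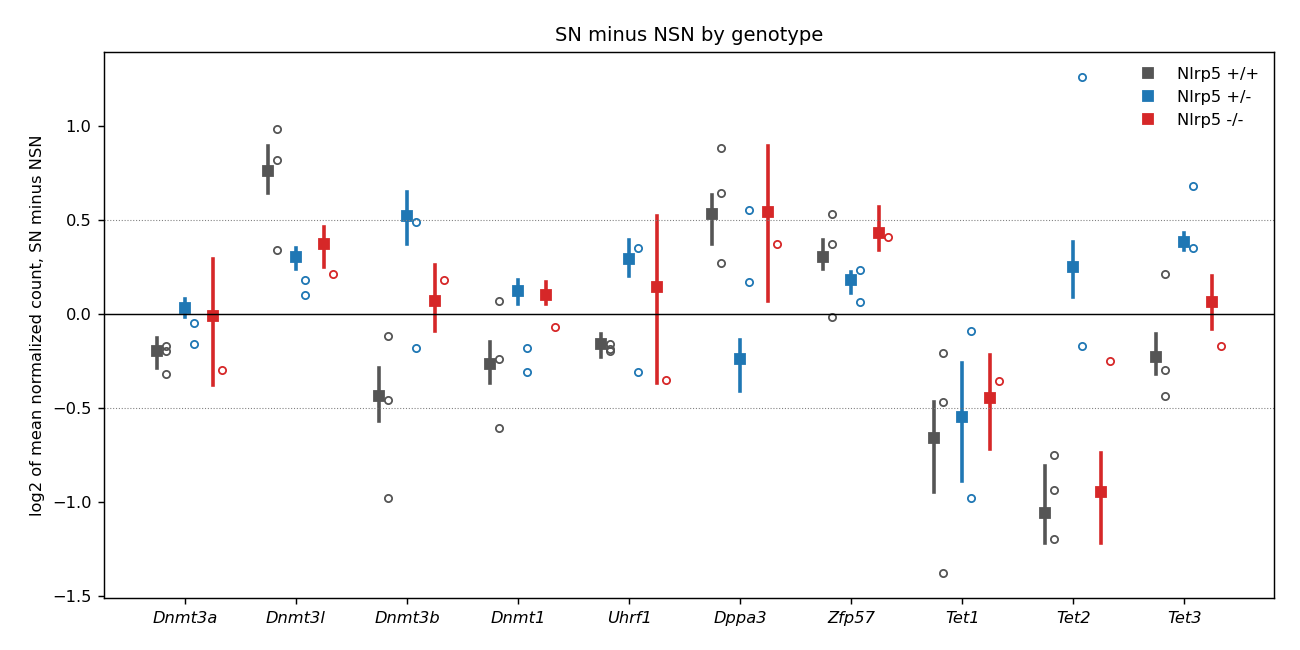
Log2 of the mean normalized count in SN minus NSN oocytes for each member, in grey for *Nlrp5* +/+, blue for +/- and red for -/-. Squares are the values over all oocytes of a genotype, vertical lines the range when each oocyte is left out in turn, and open circles the values within libraries sharing a first index. All circles of *Dnmt3l* and *Dppa3* lie above 0 and all circles of *Dnmt3a* and *Tet1* below 0.

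Loss of *Nlrp5* was compared at matched stage. In NSN oocytes 1 of 10 members differed by at least 0.5 between -/- and +/+, beside 28.9% of 13833 genes, and none was without overlap, beside 7.1%. That member was *Tet1*, at 31.6, 46.8, 55.4 and 68.6 normalized counts in -/- and 60.3, 65.9, 103 and 119 in +/+ oocytes, a log2 difference of -0.77 (-0.95 to -0.59 with each oocyte left out). Regardless of stage, with oocyte 15 (129) included, it was -0.22. Of the 4 NSN -/- oocytes, 3 lay below all NSN +/+ oocytes. The median size over the members was 0.15, beside 0.30 over all genes. The number of members past 0.5 was 4 without oocyte 14 or without oocyte 87 and 2 without oocyte 29 or without oocyte 70, since *Dnmt3b* (0.44), *Dnmt3l* (0.43) and *Dppa3* (-0.43) lay just inside the limit. *Uhrf1* lay within a narrow range in NSN -/- oocytes, at 9441, 9694, 9697 and 9871, with 3 of 4 above all NSN +/+ oocytes, and its mean differed by 0.12. *Dnmt3l* also had 3 of 4 above all NSN +/+ oocytes. *Dnmt1* was at 20903, 21517, 23785 and 26453 in these oocytes (-0.07) and *Dnmt3a* at 1299, 1466, 1707 and 1876 (0.09). *Zfp57* was at 6095, 6423, 7075 and 9148 (-0.11) and *Tet3* at 4207, 5334, 6050 and 6374 (-0.10). Markers of other cells were also compared in NSN oocytes. The 10 theca, stroma and blood markers summed to 86.2 to 115 CPM, with *Ptprc* at 0, against 50.3 to 72.2 in NSN +/+, with *Cyp17a1* and *Cdh5* at 0. The 14 granulosa markers summed to 488 to 861 (median 579) against 452 to 638 CPM (median 567), with *Amh*, *Inhbb* and *Foxl2* at 0 in NSN +/+. Without *Serpine2*, their most abundant gene here, they summed to 286 to 626 (median 368) against 199.7 to 318 CPM (median 281). Their part in these differences was not tested.

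In SN oocytes 2 of 10 members passed 0.5 between -/- and +/+, beside 34.6% of 13351 genes, and 1 of 10 (*Dnmt3b*) was without overlap, beside 15.1%. *Dnmt3b* was at 204 and 229 normalized counts in the 2 SN -/- oocytes, above all 6 +/+ oocytes at 79.3 to 136. The log2 difference was 0.96, from 0.87 to 1.04 with each oocyte left out, and 0.71 to 1.00 under the other settings. In NSN oocytes *Dnmt3b* was at 135, 182, 224 and 284 in -/- and 109.7 to 196 in +/+, with 2 of 4 -/- oocytes above all +/+. Per length its mean stayed low, at 34.9 normalized counts per kb in SN -/- and 17.9 in SN +/+ oocytes, beside 92.7 and 76.1 for *Dnmt3a*. *Tet1* was lower in SN -/- oocytes too (-0.56), at 30.4 and 43.2 against 24.9 to 106, within the +/+ range. Without oocyte 86 it differed by -0.27, and the number of members past 0.5 was 1. The granulosa markers summed to 576 to 655 CPM in SN -/- oocytes, with *Wt1* at 0, and to 497 to 626 in SN +/+ oocytes, which overlapped. The list was set with *Serpine2*, and the overlap depends on this gene: without it the markers summed to 378 to 424 and 288 to 369 CPM, which did not overlap. The part of these markers in the differences was not tested.

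With 2 SN -/- oocytes, several values rested on 1 of them. *Uhrf1* was at 7511 in oocyte 31 and 13837 in oocyte 7, the latter above all other oocytes of the series. Its difference from +/+ was 0.42, but -0.08 without oocyte 7 and 0.80 without oocyte 31. *Dppa3* differed by -0.41, or by -0.88 without oocyte 7, when 4 members passed 0.5, and -0.06 without oocyte 31. *Dnmt3a*, at 1221 and 1938, differed by 0.28, or by -0.09 without oocyte 7 and 0.58 without oocyte 31. *Dnmt1* was at 23972 and 25678 against 15419 to 24218 in +/+ (0.30), and *Tet3* at 5198 and 6289 (0.19). *Zfp57* (9094 and 10315) and *Dnmt3l* (1723 and 1839) were inside the +/+ ranges, with differences of 0.02 and 0.04.

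The NSN +/- oocytes ranged widely for several members. In NSN oocytes 3 of 10 members differed by at least 0.5 between +/- and +/+, beside 19.4% of 13732 genes, and none was without overlap, beside 0.444%. *Dnmt3l* was higher (0.55) and *Tet1* (-0.52) and *Tet2* (-0.81) were lower. Without oocyte 79 *Dnmt3l* differed by 0.43 and *Tet1* by -0.34. The members' median difference was -0.44, beside 0.04 over all genes, with *Dnmt1* and *Uhrf1* at -0.45 each, *Tet3* at -0.44 and *Dnmt3b* at -0.50, just inside the limit. Without oocyte 45, 48 or 70 the number past 0.5 was 5, and without oocyte 78 it was 6. *Tet2* had no read in oocyte 61, where 0 of 5757879 reads allows up to 0.521 CPM. In SN oocytes 1 of 10 members passed 0.5, beside 10.6% of 13295 genes, and none was without overlap, beside 0.0827%. This was *Tet2* (0.51), and the number was 0 without oocyte 69 or 86, 2 without oocyte 77 and 3 without oocyte 55.

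The 9 NSN +/- oocytes ranged from 3538 to 10240 normalized counts of *Uhrf1*, from 9075 to 25663 of *Dppa3* and from 12555 to 23303 of *Dnmt1*. In 6 of 9 (oocytes 53, 54, 56, 61, 63 and 64) *Uhrf1* was below all +/+ NSN oocytes, and in the same 6 *Dppa3* was above all of them. Of these 6, *Dnmt1* was below all +/+ NSN oocytes in 5. The remaining oocytes, 45, 48 and 62, had *Uhrf1* at 9596, 10240 and 7828 and *Dppa3* at 9075, 9683 and 10990. Oocytes 45 and 48 came from another first index, whereas oocyte 62 shared one with oocytes 61, 63 and 64. The 6 oocytes had totals of 5039115 to 6758583 reads, below the 7658651 to 11043746 of NSN +/+ oocytes, and oocytes 45 and 48 had 11148793 and 10676526, but oocyte 62, with 6415749, lay among the 6. On a staging score (mean log2 level of 105 NSN markers minus that of 59 SN markers, none of them a member), the 6 lay at -3.51 to -2.71 and the other 3 at -2.61 to -2.40, with NSN +/+ oocytes at -3.23 to -2.86 and all SN oocytes at -5.27 to -3.61. The part of depth, first index or stage in this spread was not tested. The ratio of *Dppa3* to *Uhrf1* within an oocyte was 0.946 to 6.39 in NSN +/- oocytes, 0.912 to 1.77 in NSN +/+ and 0.638 to 1.19 in NSN -/- oocytes.

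Set against +/- oocytes, NSN -/- oocytes had 4 of 10 members past 0.5, beside 27.1% of 13856 genes, and none without overlap, beside 1.16%. *Dnmt3b* (0.94), *Tet2* (0.99) and *Uhrf1* (0.57) were higher and *Dppa3* (-0.84) lower, with *Uhrf1* at 0.49 without oocyte 54. In SN oocytes none passed 0.5, beside 32.2% of 13331 genes, and 1 of 10 was without overlap, beside 11.1%. This was *Dnmt3b*, at 204 and 229 in -/- and at 108 to 202 in +/- oocytes (0.49). The number past 0.5 was 2 without oocyte 7 or 31 and 1 without oocyte 38, 39 or 46. These comparisons and those with +/+ share oocytes.

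**Figure D5:**
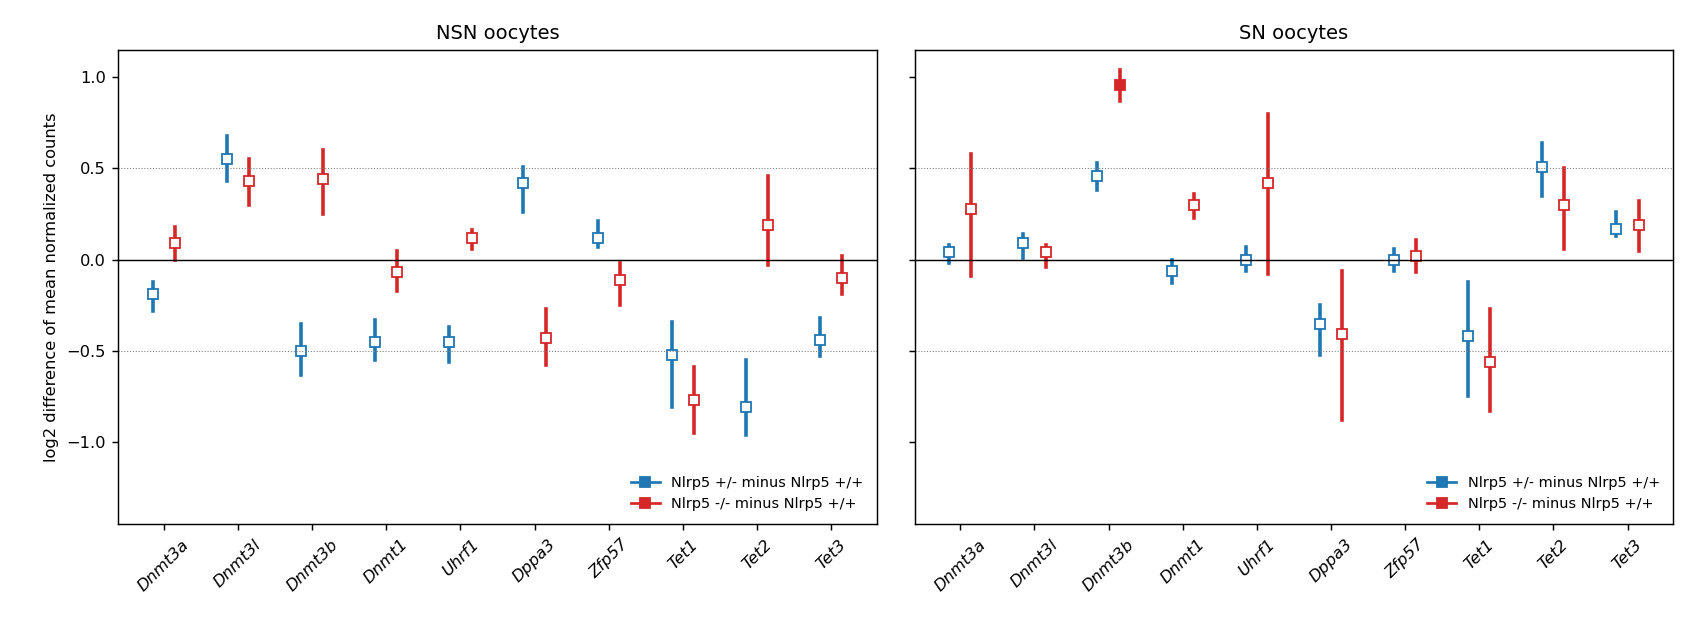
Log2 differences of mean normalized counts from *Nlrp5* +/+ for +/- (blue) and -/- (red) oocytes, in NSN (left) and SN (right). Vertical lines give the range when each oocyte is left out in turn, filled squares mark groups whose oocytes do not overlap and open squares those that do. *Dnmt3b* in SN -/- oocytes, at 0.96, is the only filled square, and dotted lines mark differences of 0.5.

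Some pairs of members varied together across oocytes, and others were hardly related over the 33 oocytes. Among the latter were *Dnmt1* and *Dnmt3l* (Pearson -0.05), *Dnmt3l* and *Uhrf1* (0.05) and *Uhrf1* and *Tet1* (-0.11). No share over other pairs of genes was taken. Over the 33 oocytes, *Dnmt1* and *Uhrf1* had a Pearson correlation of 0.70 and a Spearman correlation of 0.72 (log2 of normalized count plus 1), and *Dnmt3a* and *Uhrf1* of 0.72 and 0.68. *Dppa3* ran opposite to *Uhrf1* (-0.58 and -0.63) and to *Dnmt1* (-0.57 and -0.57). After the mean of each genotype and stage had been taken off in 32 staged oocytes, the Pearson values were 0.57 for *Dnmt1* and *Uhrf1*, 0.69 for *Dnmt3a* and *Uhrf1*, and -0.53 for *Dppa3* and *Uhrf1*. *Dnmt3l* had 0.74 and 0.79 with *Zfp57* (0.71 and 0.68 within groups), and -0.02 and 0.00 with *Dnmt3a* (0.27 and 0.33 within groups). These values are descriptions over oocytes that share first indices and differ in depth. Of the members, *Dnmt3l* and *Zfp57* had the strongest relation to the staging score (Pearson -0.57 and -0.55), a higher score standing for more NSN-like markers, and *Dppa3* had -0.24.

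The genes whose levels ran most like each member over the 33 oocytes were taken from 8435 genes with a mean of at least 100. *Rbpms2*, which encodes an RNA-binding protein, was closest to *Dnmt3l* (Pearson 0.89), followed by *Accsl* and *Gm49463* (0.84 each). *Abcb9* (0.88) and *Fbxo10* (0.86) were closest to *Uhrf1*, and *Fbxo10* (0.76) was also among the 3 closest to *Dnmt3a* after *Chdh* (0.79) and *Ogdh* (0.77). *Mrps33*, which encodes a mitochondrial ribosomal protein, was closest to *Dppa3* (0.87), with *Chchd2* at 0.86. *Tacc2* was closest to *Dnmt1* (0.86), *Zbtb32* to *Zfp57* (0.82), *Chsy1* to *Tet3* (0.83) and *Mn1* to *Dnmt3b* (0.78). For *Tet2* it was *Prmt5* (0.85) and for *Tet1* it was *Ash1l* (0.72), and these 2 members had low counts.

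Of 38 further genes of the pathway in 5 lists, 33 had a mean of at least 10 in both the stage and the -/- against +/+ comparisons. Between SN and NSN, 1 was higher and 9 lower in +/+, 1 higher and 7 lower in +/-, and 3 higher and 8 lower in -/- oocytes, with list medians of -0.15, -0.15 and -0.06. Over all genes 33.9%, 28.7% and 38.1% passed 0.5 in either direction, so that the lists held no larger share than all genes. *Cdca7*, a partner of the remodeller HELLS in methylation maintenance, was at a mean of 38.6 in SN and 151 in NSN +/+ oocytes (-1.94), with -1.95 in +/- and -1.64 in -/- oocytes. *Uhrf2*, the paralogue of *Uhrf1*, was low in SN in each genotype as well, at means of 13.7 against 98.3 in +/+ oocytes (-2.76), -1.40 in +/- and -2.24 in -/-, and it is named after its values were seen. *Ogt*, whose enzyme associates with TET proteins, was at 951 in SN and 2210 in NSN +/+ oocytes (-1.22), -0.38 in +/- and -0.75 in -/-. *Gadd45a*, named after its values were seen, was higher in SN in each genotype, at means of 54.5 against 27.8 in +/+ (0.95), with 0.83 in +/- and 1.59 in -/-. *Mat2a*, which makes the methyl donor S-adenosylmethionine, had -0.67, -0.48 and -0.42.

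Between -/- and +/+ oocytes, 2 of these 33 genes were higher and 3 lower by at least 0.5 in NSN, and 6 higher and 4 lower in SN, with list medians of -0.03 and 0.05, beside 28.9% and 34.6% of all genes past 0.5 in either direction. *Ahcy*, which clears the product of methylation reactions, was higher in -/- at both stages, at a mean of 366 against 238 in NSN (0.62) and 397 against 237 in SN (0.74). *Mat2b*, of the same list, was lower in SN -/- oocytes, at 10812 against 15637 (-0.53). *Ogt* was lower in NSN -/- oocytes, at 1451 against 2210 (-0.61). Of the 5 imprint protection genes, 1 was higher and 2 were lower in SN -/- oocytes, and *Setdb1* (0.03) and *Ctcf* (-0.24) did not pass 0.5. *Trim28*, the corepressor that ZFP57 recruits, was at 857 against 595 (0.52), whereas *Zfp445*, another imprint-protecting zinc finger gene, was at 165 against 287 (-0.79) and *Cbx5*, encoding a heterochromatin protein, at 216 against 353 (-0.70). In NSN oocytes *Trim28*, *Zfp445* and *Cbx5* were at -0.14, 0.15 and -0.12. The SN values rest on 2 -/- oocytes.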

How the data were processed

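Per the study's methods and processing notes, polyadenylated RNA of single oocytes was sequenced, Trim Galore removed adapters, HISAT2 placed the reads on the genome, and a library needed 4000000 reads to be kept. The authors deposited a read count per gene and oocyte, without normalization, with GRCm38 coordinates (the methods name GRCm39). Versions are not given in the sources used here. Of 35373 entries, 52 repeats were left out. A file of 1 read total per library, and the authors' tables of called genes with fold changes and p-values, were not used. DNA methylation and protein data were not analysed here.

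Size factors were medians of ratios over 33 oocytes (11845 genes with a count in every oocyte). Group values are means over oocytes with equal weight, with a pseudocount of 1 and a minimum mean of 10. Genotype came from the labels and stage from the study's figures, where oocytes 46 and 48 were hard to read. The 9 comparisons were SN minus NSN in each genotype and the 3 pairs of genotypes at each stage. No test was made: oocytes of 1 group are not known to be separate animals, and every SD is a spread between oocytes. No libraries were identical. The named genes were the 10 members, pathway genes past 0.5 with a mean of at least 100, and the 3 genes most correlated with each member. *Uhrf2*, *Gadd45a*, *Setdb1* and *Ctcf* fall outside this rule and were named after their values were seen. The members and lists were chosen with earlier results of these data known. Alternatives were scaling by the total count or TMM, size factors within a comparison, medians, pooled counts, a pseudocount of 5, other filters, other staging of oocytes 55 and 61, no regard to stage, each oocyte left out, and values within first indices. Exon lengths came from GENCODE vM39 on GRCm39. On simulated data with known changes of 1 on the log2 scale, the sign was recovered for 100.0% of 97 genes in SN minus NSN of *Nlrp5* +/+ (13576 genes) and 98.1% of 107 genes in SN -/- minus +/+ (13351 genes). The median errors were 0.18 and 0.29 on the log2 scale. Changes of 0.5 were not simulated, and every gene was given the same relative spread between oocytes. Smaller differences and more variable members are therefore not covered. Python 3.11.15, numpy, pandas, scipy and matplotlib were used.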

Additional observations from a re-analysis of the deposited data

Results flagged for a closer look

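Values of the 10 members were looked at in the 5 groups with 4 to 9 oocytes, 50 sets in all, for a highest or lowest oocyte set far from the others (Dixon's criterion on log2 values), which chance alone gives in about 1 in 20. In 2 sets this was met. *Dnmt3l* in oocyte 86 was at 1262 normalized counts, the lowest of the 6 SN *Nlrp5* +/+ oocytes. *Tet2* in oocyte 61 was at 0, the lowest of the 9 NSN *Nlrp5* +/- oocytes, which is the oocyte with the highest theca, stroma and blood markers of the staged ones (238 CPM). Oocyte 15 (*Nlrp5* -/-), which has no stage and entered no comparison within a stage, was above all 10 *Nlrp5* +/+ oocytes for *Dnmt3b* (205 normalized counts against a highest of 196), *Tet1* (129 against 119) and *Tet2* (148 against 110.3). Its granulosa markers summed to 1558 CPM, above all other oocytes, and their part in these values was not tested.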

How the results depend on the processing

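Of the member values under settings other than leaving out an oocyte, 733 moved by less than 1 SD of the spread between oocytes, 25 moved by more and 2 that were past 0.5 turned direction. With an oocyte left out, 946 moved by less than 1 SD and 14 by more. The SD is that of single oocytes, and a mean over several oocytes moves little beside it when 1 is left out. These tallies therefore do not measure stability. Counting values inside 0.5 as well, 26 of 700 values turned sign under the other settings, 15 of 60 within a first index and 39 of 960 with an oocyte left out. Among those within the first index of oocytes 45, 46, 47 and 48 were *Dppa3* (0.55 against -0.24) and *Uhrf1* (-0.31 against 0.29) in SN minus NSN of +/-. *Dnmt3b* in SN minus NSN of *Nlrp5* +/- was -0.18 within the first index of oocytes 45, 46, 47 and 48, and *Tet2* in SN +/- minus +/+ was -0.15 regardless of stage. The cause was not tested. The number of members past 0.5 was small and moved with many settings. A minimum mean of 100, which leaves out *Tet1* and *Tet2* by construction, gave 2 in SN minus NSN of +/+ (against 4), 1 in +/- and 1 in -/- (against 2 each). It gave 0 for -/- minus +/+ in NSN (against 1), 1 in SN (against 2), 1 for +/- minus +/+ in NSN (against 3) and 0 in SN (against 1). In SN minus NSN of +/- the number was 1 with scaling by the total count, with medians, with pooled counts and with oocyte 61 as SN, and in -/- it was 1 with the total count. In SN -/- minus +/+ it was 1 with medians. For +/- minus +/+ it was 5 in NSN with medians, and in SN it was 0 with medians, 2 with pooled counts, 0 with a pseudocount of 5 and 3 with oocyte 55 as NSN. For -/- minus +/- in SN (against 0) it was 1 with the total count, TMM, medians, pooled counts or oocyte 61 as SN. Regardless of stage it was 3 for -/- minus +/+ (against 1 in NSN), namely *Dnmt3b*, *Tet2* and *Dppa3* without *Tet1*, 0 for +/- minus +/+ (against 3 in NSN and 1 in SN) and 2 for -/- minus +/- (against 4 in NSN and 0 in SN). With each oocyte left out, the number ranged from 3 to 5 in SN minus NSN of +/+, 0 to 2 in +/- and 2 to 3 in -/-, from 1 to 4 for -/- minus +/+ at either stage, from 2 to 6 in NSN and 0 to 3 in SN for +/- minus +/+, and from 3 to 4 in NSN and 0 to 2 in SN for -/- minus +/-. Scaling by the total count moved the median of all genes by -0.11 in SN minus NSN of +/+. Apart from the comparison within first indices, no pairing of oocytes could be made, since the labels give each a number of its own. *Tet1*, *Tet2* and *Dnmt3b* had the fewest reads of the members in every group.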
